A study of Mus musculus with 2 samples.

Results

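Claudins were followed across the cell types of injured mouse kidneys through 10 genes, Cldn1, Cldn2, Cldn3, Cldn4, Cldn5, Cldn7, Cldn8, Cldn10, Cldn16 and Cldn19, which were chosen by name from the 32285 genes of the count tables, 34 of them with a symbol starting with Cldn. All 10 had unique molecular identifiers (UMIs, single captured transcripts) in the cells analysed. The cells came from 2 single-cell 3′-end libraries of kidney, 1 per group and both in batch 1, so every difference between groups is a difference between 2 libraries with no replicate check, and no p-value is given. The control library was Cre-. The haplodeficient library carried Cdh5-CreERT2; Phd3f/+, that is, 1 floxed allele of the oxygen-sensing prolyl hydroxylase PHD3 and a tamoxifen-inducible Cre recombinase driven by the promoter of Cdh5, which is active in endothelium. Both groups had ischemia reperfusion injury from clamping the artery of 1 kidney, received 4 tamoxifen injections after it, and were analysed on day 14. The labels do not say whether the control also carried a floxed allele, how old the mice were, or how many went into a library. The targeted gene, listed as Egln3, had 24.2 CPM (UMIs scaled to 1000000 per class) in control endothelial-like cells (exact 95% Poisson interval 18.4 to 31.3) and 21.0 in haplodeficient ones (17.2 to 25.2), with 58 and 111 UMIs in all. These 3′ tags need not lie in the floxed part, so this does not check the genotype.

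Claudins are membrane proteins of the tight junction, the seal between neighbouring epithelial or endothelial cells, where they form barriers or ion-selective pores for transport between cells. Kidney segments each use their own set. Cldn2 forms a cation and water pore of the proximal tubule, Cldn10 gives rise to an anion-selective form in the proximal tubule and a cation-selective form in the thick ascending limb, and Cldn16 and Cldn19 serve calcium and magnesium uptake in the thick ascending limb. Cldn3, Cldn4, Cldn7 and Cldn8 are claudins of the distal nephron and collecting duct, Cldn1 is known from the parietal epithelium of the glomerulus, and Cldn5 is the main claudin of endothelium.

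The genes are placed here on GRCm38 with the GENCODE M21 annotation. Cldn1 (chr16:26356642-26371841, minus strand), Cldn16 (chr16:26463135-26482765, plus), Cldn5 (chr16:18776847-18778262, plus) and Cldn8 (chr16:88560828-88563183, minus) share chromosome 16. Cldn4 (chr5:134945119-134946934, minus) and Cldn3 (chr5:134986214-134987472, plus) are neighbours on chromosome 5. Cldn2 is at chrX:139800828-139811386 (plus), Cldn7 at chr11:69964779-69967885 (plus), Cldn10 at chr14:118787908-118875489 (plus) and Cldn19 at chr4:119255414-119262438 (plus). Cldn3, Cldn10 and Cldn19 each overlap an annotated gene on the opposite strand, and how the counting treated strand is not given in the sources used here.

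Promoter sequence was taken from RefSeq (GRCm38.p6) for the 9 members other than Cldn8. For 3 genes the 250 bases before the annotated start are shown, written on the gene's own strand from 5′ to 3′, because the results below compare these genes: the neighbours Cldn3 (chr5:134985964-134986213, plus) and Cldn4 (chr5:134946935-134947184, minus) differed in their contrast between libraries, and Cldn10 has a pair of starts (chr14:118787621-118787870 and chr14:118854700-118854949, both plus) whose transcripts 3′ tags cannot tell apart. Capitals mark a match to 1 of 9 short motifs searched on both strands.
Cldn3: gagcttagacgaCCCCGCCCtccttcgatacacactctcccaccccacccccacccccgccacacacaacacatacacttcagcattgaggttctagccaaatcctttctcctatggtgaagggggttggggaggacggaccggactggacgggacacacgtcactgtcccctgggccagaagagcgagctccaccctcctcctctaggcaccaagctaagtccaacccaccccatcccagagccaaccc
Cldn4: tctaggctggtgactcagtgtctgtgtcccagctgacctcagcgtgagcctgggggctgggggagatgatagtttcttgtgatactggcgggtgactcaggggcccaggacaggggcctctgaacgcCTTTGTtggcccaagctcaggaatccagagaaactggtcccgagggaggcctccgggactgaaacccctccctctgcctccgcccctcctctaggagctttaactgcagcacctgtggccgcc
Cldn10 upstream start: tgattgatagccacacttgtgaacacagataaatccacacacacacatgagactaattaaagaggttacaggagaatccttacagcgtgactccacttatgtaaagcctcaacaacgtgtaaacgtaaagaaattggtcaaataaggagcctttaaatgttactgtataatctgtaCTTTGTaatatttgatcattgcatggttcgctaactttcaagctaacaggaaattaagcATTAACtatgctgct
Cldn10 downstream start: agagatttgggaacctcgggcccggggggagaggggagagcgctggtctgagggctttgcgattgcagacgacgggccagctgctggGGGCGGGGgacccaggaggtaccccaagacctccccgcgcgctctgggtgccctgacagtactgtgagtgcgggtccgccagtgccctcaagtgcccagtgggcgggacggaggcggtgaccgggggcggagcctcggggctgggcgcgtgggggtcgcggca

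The capitals in the Cldn3 sequence are a GC box (GGGCGGGG, here on the opposite strand) at -238 from the start, and those in Cldn4 a SOX motif (ACAAAG, opposite strand) at -123. The upstream Cldn10 start has the SOX motif at -74 and an HNF1 motif (GTTAAT) at -15, both on the opposite strand. The bases after this RefSeq start were found in no GENCODE M21 transcript of Cldn10, so these positions hold for the RefSeq start only. The downstream Cldn10 start has a GC box at -163. GC content was 36% before the upstream and 72.4% before the downstream Cldn10 start, beside a median of 52.4% over 32851 promoters, of which 16.1% held the GC box, 16.5% the SOX motif and 6.43% the HNF1 motif. No match in these 4 stretches was found for the other motifs searched. They were the nuclear receptor motif CAAGGTCA, held by 1.33% of all promoters, and the forkhead motif TGTTTAC, held by 3.17%. The ETS motif CCGGAA was held by 12.0% and the E-box CACGTG by 6.02%. The grainyhead motif AACCGG was held by 5.62%, and it overlaps the ETS motif at 1 Cldn7 start. The TATA box TATAAA was held by 12.4%. A match is a stretch of letters and was not tested as a binding site.

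Depth and cell classes bear on every value below. The control library had 8737 cells with 106926054 UMIs, a median of 8762 UMIs per cell and a median mitochondrial share of 10.2%. The haplodeficient library had 9222 cells with 93610831 UMIs, a median of 5471.5 and a mitochondrial share of 2.69%. Of the barcodes kept, 28 occurred in both libraries (0.296% and 0.279%). Clusters were named from marker genes, with all claudins left out of the clustering, and a name ending in -like means that the markers led that cluster; 16 named classes had at least 30 cells in each library. The endothelial-like class had all 10 of its markers at 2-fold or more over other cells in both libraries, the descending thin limb-like class 7 of 8 and 6 of 8, and the injured tubule-like class 6 of 8 and 5 of 8. The class that took the podocyte name by count (86 and 280 cells) had 8 of 9 podocyte markers at 2-fold or more over other cells in both libraries. However, it was led by Igfbp2, Tnc and Wt1, and Nphs1 was detected in only 11.6% and 10.7% of its cells. It is therefore called Wt1-led here. Free RNA, measured in barcodes of up to 100 UMIs, held every member.

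Each member had the same leading class in both libraries except Cldn3. Levels in this paragraph and the next are CPM summed over a class, control first and haplodeficient second, with exact 95% Poisson intervals that cover counting error only. Cldn2, the proximal pore, had 257 (252 to 263) and 266 (244 to 289) in proximal tubule-like cells and 284 (275 to 294) and 272 (260 to 285) in injured tubule-like cells, and no other class passed 110. Cldn10 led in thick ascending limb-like cells at 689 (676 to 702) and 1238 (1223 to 1254), followed by proximal tubule-like cells at 246 and 312 and injured tubule-like cells at 202 and 248. Cldn16 was at 98.5 (93.6 to 104) and 169 (163 to 175) in thick ascending limb-like cells, which held 87.6% and 91.8% of all its UMIs in cells. Cldn19 was at 182 (176 to 189) and 178 (172 to 184) there and at 65.2 and 43.8 in descending thin limb-like cells. The Cldn16 and Cldn19 proteins act together in the thick ascending limb, and both transcripts had their highest level in that class.

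The distal claudins shared 5 classes but not the same order. Cldn4 was highest in intercalated cell-like cells (834 and 942), then in connecting tubule or principal cell-like cells (672 and 787), and Cldn8 had the same leader (216 and 171). The next class for Cldn8 was within counting error of it, at 203 in control connecting tubule or principal cell-like cells and 163 in haplodeficient distal convoluted tubule-like cells. Cldn7 led in connecting tubule or principal cell-like cells (819 and 1189), within counting error of intercalated cell-like cells in the control (793), and was at 364 and 564 in thick ascending limb-like cells, where Cldn4 was at 87.0 and 74.8, below its own free RNA level of 128 and 228. Cldn3 was highest in descending thin limb-like cells in the control library (306) and in connecting tubule or principal cell-like cells in the haplodeficient library (555). In thick ascending limb-like cells Cldn3 and Cldn7 thus lay above their CPM in pure free RNA in both libraries, and Cldn4 did not. Free RNA was estimated at only 6.67% and 5.17% of the UMIs of this class. Whether its Cldn4 came from free RNA was not tested. Cldn1 was highest in Wt1-led cells at 210 (181 to 243) and 160 (147 to 174), followed by injured tubule-like cells at 98.1 and 96.3 and descending thin limb-like cells at 47.4 and 43.2. Cldn5 was at 1115 and 606 in endothelial-like cells and at or under 87.4 in the other named classes, and cells left unnamed (89 and 144) had 538 and 483.

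**Figure D1:**
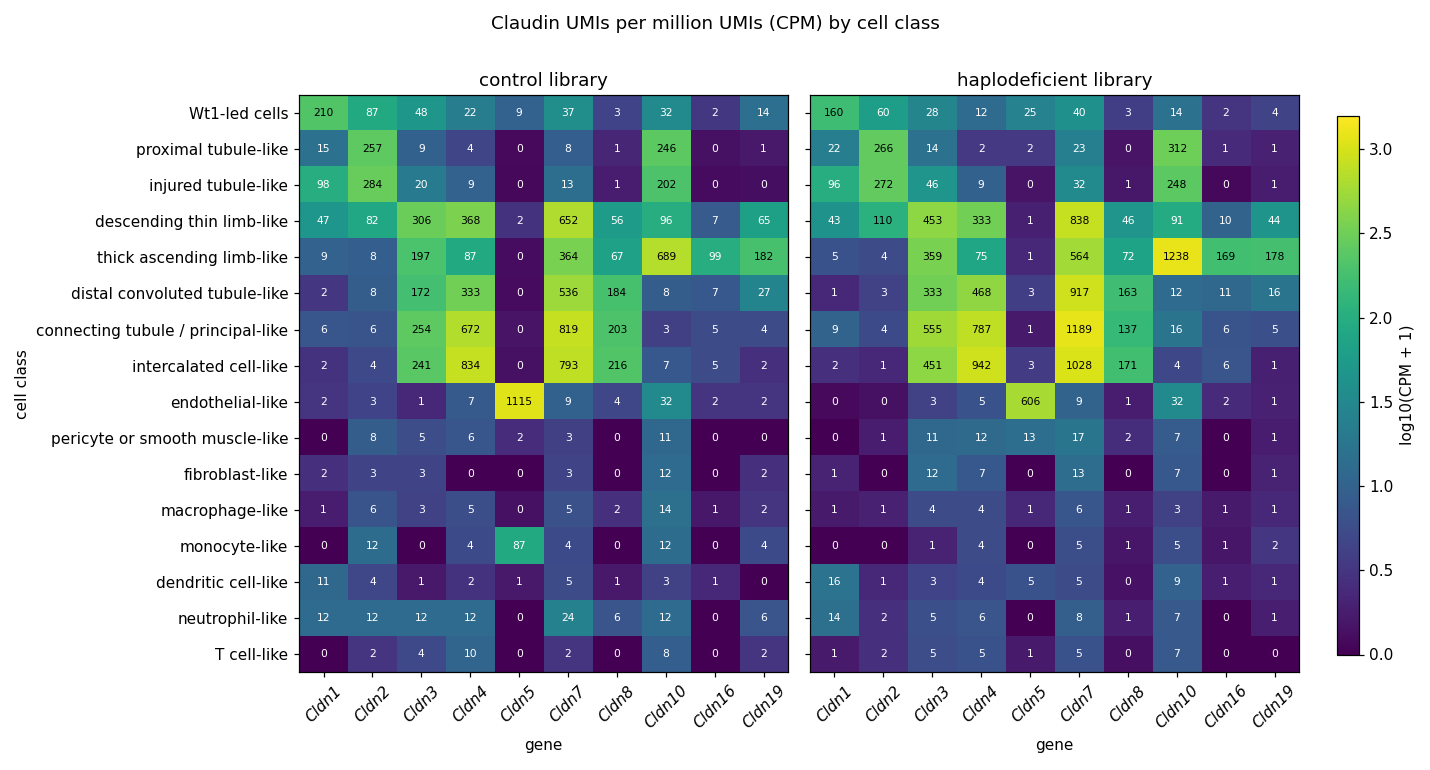
Level of each of the 10 claudins (columns) in each named class (rows) for the control and the haplodeficient library, as CPM summed over the class. Cldn2 stands out in proximal and injured tubule-like cells (257 to 284 CPM), Cldn16 in thick ascending limb-like cells (98.5 and 169), and Cldn5 in endothelial-like cells (1115 and 606); the row named for podocytes is the Wt1-led class.

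Genes with the most similar pattern over the 19 named classes were sought among 7882 genes, by the Pearson correlation of log2(CPM + 5), taking the lower value of both libraries. These values describe shared class patterns in the same libraries and carry no p. The closest gene to Cldn4 was Cldn8 (r = 0.963), and the closest to Cldn8 was Cldn4. Cldn16 was closest to Umod (0.893), Casr (0.862), the calcium-sensing receptor, and Cldn19 (0.849). Umod was also the closest gene to Cldn19 (0.915), followed by Irx2 (0.908) and Sim2 (0.890). For Cldn2 the list was Bdh2 (0.961), 1700016C15Rik (0.923) and Greb1l (0.915), and for Cldn10 it was Slc9a3 (0.928), Slc5a1 (0.827) and Itgb8 (0.788). Cldn7 was closest to Dsp (0.967), Mal2 (0.962) and Rab25 (0.960), Cldn3 to Scx (0.947), Rgl3 (0.942) and Sim1 (0.935), and Cldn4 next to Slc35g1 (0.95) and Krt7 (0.949). Cldn8 was next closest to Epb41l4b (0.958) and Ckmt1 (0.948), Cldn1 was closest to Lama1 (0.906), Stc2 (0.878) and Gxylt2 (0.852), and Cldn5 to Sox17 (0.926), Sema3g (0.922) and Epha6 (0.906).

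In the proximal tubule, Cldn1 was higher in injured cells, Cldn10 was lower and Cldn2 was close. Injured tubule-like cells (721 and 358) were led by Havcr1, the kidney injury molecule. The proximal tubule-like class also held an injured-like subcluster (81 and 99 cells), 2.82% of its control and 36.7% of its haplodeficient cells. The haplodeficient ratios below thus have a partly injured-like reference. Cldn1 was at 14.7 and 22.1 CPM in proximal tubule-like cells (2872 and 270 cells) and at 98.1 and 96.3 in injured ones, a ratio of 6.67 for the control cells (exact 95% interval 6.0 to 7.41) and 4.36 for the haplodeficient cells (3.23 to 6.01). Cldn2 differed little, with ratios of 1.11 (1.06 to 1.15) and 1.02 (0.930 to 1.13). Cldn10 was lower in injured cells in both libraries, with ratios of 0.821 (0.784 to 0.859) and 0.796 (0.726 to 0.873). Injured tubule-like cells had fewer mitochondrial UMIs than proximal tubule-like cells (10.7% against 23.1% for control cells, 6.28% against 11.2% for haplodeficient cells). Outside mitochondrial genes the Cldn1 ratio was 5.74 and 4.13, and the control Cldn2 ratio was 0.952, below 1.

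Cells inside the injured class were also compared by Havcr1. After thinning each cell to 2000 UMIs, cells with a Havcr1 UMI (268 and 96) were set against those without (413 and 255). Cldn1 was at 121 (112 to 131) against 80.7 (74.1 to 87.7) CPM in control cells and at 124 (110 to 139) against 81.3 (72.9 to 90.5) in haplodeficient ones. Median depths were 15004 against 12614 UMIs and 15804.5 against 11625. Cldn3, a barrier claudin of more distal segments, was at 32.1 against 11.3 and at 80.8 against 26.4. Cldn10 was at 192 against 210 in control cells, with overlapping intervals, and at 213 (194 to 233) against 267 (252 to 284) in haplodeficient ones. Cldn2 was lower with Havcr1 in control cells, at 264 (251 to 278) against 301 (288 to 315), unlike between the classes, and at 265 against 276 with overlapping intervals in haplodeficient cells. Among control proximal tubule-like cells, the 117 with a Havcr1 UMI had 77.0 CPM of Cldn3, 61.6 of Cldn7 and 38.5 of Cldn1, against 5.28, 5.13 and 13.4 in the 2393 without. Only 18 haplodeficient proximal tubule-like cells had a Havcr1 UMI, and their intervals overlapped with those of the 195 without for all 3 genes (Cldn3 31.0 against 12.4, Cldn7 43.5 against 21.1, Cldn1 24.8 against 22.2). Of the 303 Cldn3 UMIs in control proximal tubule-like cells, 211 lay in an S3-like subcluster led by Akr1c18 (100 and 12 cells), which had 168 and 110 CPM of Cldn3, 149 and 101 of Cldn7 and 43.7 and 84.5 of Cldn1. For comparison, the S1 or S2-like subcluster had 0.515 CPM of Cldn3 and 1.72 of Cldn7 in the control library. How cells are assigned to the injured class matters for Cldn3: its ratio of injured over proximal tubule-like cells was 2.33 and 3.18, but reached 36.6 for control cells at Leiden resolution 2 and 38.5 for haplodeficient cells when each cell was named on its own. In that last setting the haplodeficient Cldn1 ratio was 1.88 and the Cldn2 ratios were 0.625 and 0.505. The control Cldn2 ratio was also below 1 at Leiden resolution 2 (0.882) and at a mitochondrial limit of 25% (0.831), so its direction depended on the setting.

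**Figure D2:**
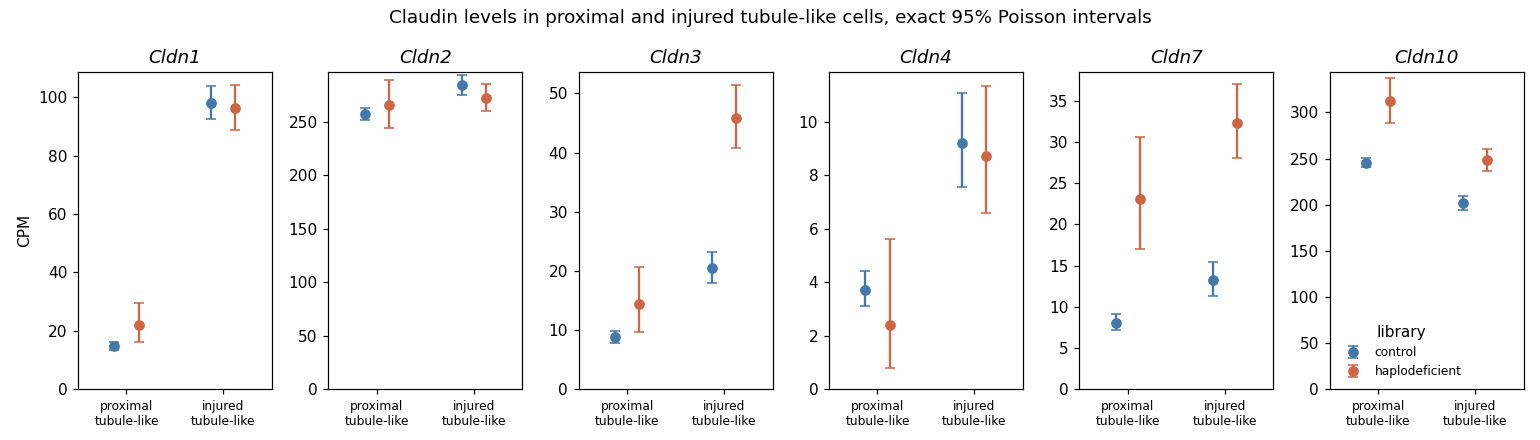
CPM of 6 claudins in proximal tubule-like and injured tubule-like cells of each library, with exact 95% Poisson intervals. Cldn1 was higher in injured cells of both libraries (98.1 and 96.3 against 14.7 and 22.1), Cldn10 was lower, and Cldn2 stayed between 257 and 284.

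The thick ascending limb-like class (998 and 1075 cells) split into subclusters that carried different claudins. A subcluster led by Tmem207 and Kcnj10 (75 and 42 cells) had the most Cldn16, 197 and 502 CPM, and little Cldn10, 172 and 233. A subcluster led by Lpl and Egf (240 and 16 cells) had the reverse, with 958 and 1391 CPM of Cldn10 and 54.7 and 54.0 of Cldn16. Cldn19 did not follow either gene, at 209 and 213 in the Tmem207-led and 176 and 182 in the Lpl-led subcluster. Macula densa-like cells (22 and 22) had 172 and 367 CPM of Cldn10, 101 and 84.1 of Cldn16 and 39.4 and 64.7 of Cldn19, the lowest Cldn19 of the 7 subclusters plotted.

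Cldn3, Cldn4 and Cldn7 also differed among these subclusters. The Lpl-led cells had 32.2 and 27.0 CPM of Cldn3, 129 and 122 of Cldn7 and 11.1 and 23.6 of Cldn4. Cells led by Cxcl5 and C3 (177 and 83), a chemokine and a complement gene, had 297 and 477 of Cldn3, 492 and 682 of Cldn7 and 184 and 209 of Cldn4. In the distal convoluted tubule-like class the split was alike: a cluster led by Slc12a3, Calb1 and Pvalb (159 control and 13 haplodeficient cells) had 31.5 and 26.2 CPM of Cldn3 and 206 and 188 of Cldn7, while the larger one (392 and 335 cells) had 224 and 346 of Cldn3 and 658 and 949 of Cldn7. Cldn8 was close between both clusters, at 205 and 149 against 176 and 164. The subclusters with low Cldn3 held mostly control cells, so class levels of Cldn3, Cldn4 and Cldn7 depend on the mix of subclusters.

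**Figure D3:**
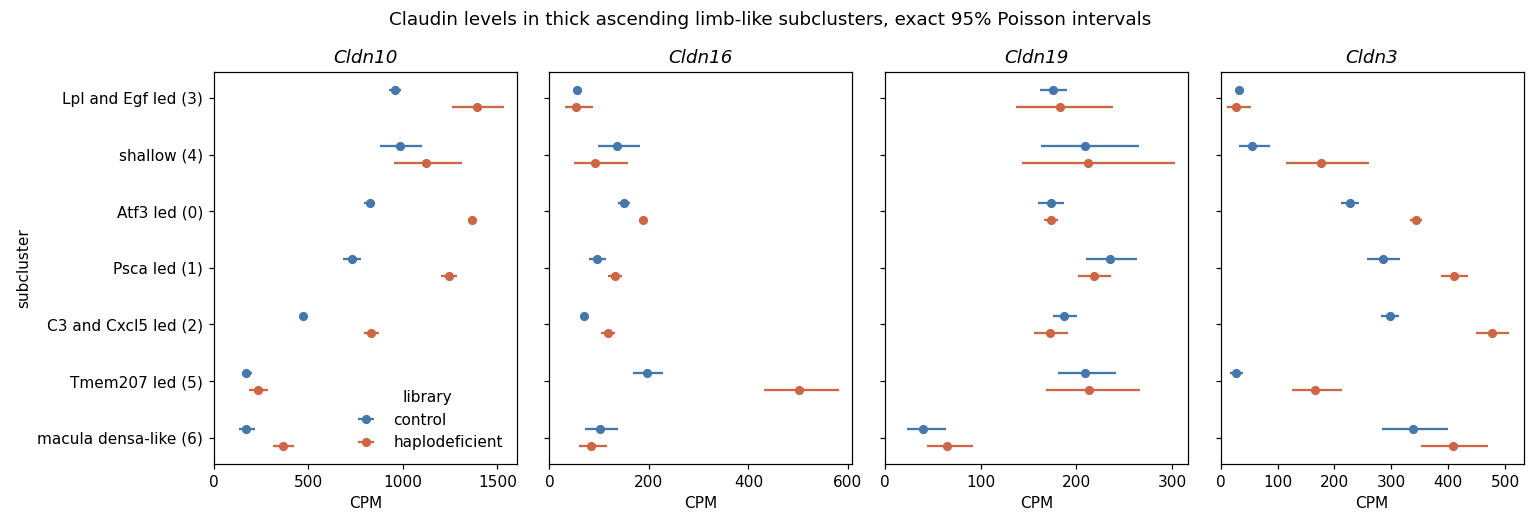
CPM of Cldn10, Cldn16, Cldn19 and Cldn3 in 7 thick ascending limb-like subclusters of each library, with exact 95% Poisson intervals (Leiden number in brackets). Cldn16 peaks in the Tmem207-led subcluster (197 and 502), where Cldn10 is at 172 and 233, and Cldn3 is low in the Lpl and Egf-led subcluster (32.2 and 27.0).

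Single cells were compared after thinning to 2000 UMIs, which left 899 and 985 thick ascending limb-like cells. Cldn10 was detected in 61.4% and 72.5% of them, Cldn16 in 17.2% and 26.5% and Cldn19 in 29.0% and 28.1%. In intercalated cell-like cells thinned alike, the shares were 1.35% and 0.898% for Cldn10, 1.58% and 1.2% for Cldn16, and 0% and 0.299% for Cldn19, where 0 of 444 cells allows up to 0.827% (exact 95% binomial interval). Before thinning, the shares with Cldn10 were 78.5% and 80.2% at median depths of 11361.5 and 10033 UMIs in thick ascending limb-like cells, and 6.74% and 5.85% at 18013 and 22337.5 in intercalated cell-like cells. Among cells with a Cldn16 UMI, 52.9% (44.7 to 61.0) of control and 63.2% (57.1 to 69.1) of haplodeficient cells had Cldn10, against 63.2% (59.6 to 66.6) and 75.8% (72.5 to 78.9) of cells without, differences of -10.3 and -12.6 percentage points. All 5 other settings kept the negative sign but not the size. They reuse cells of the same libraries, so the shared sign is no separate check. They gave -14.2 to -5.02 points for control cells and -6.79 to -2.0 for haplodeficient cells, each of the latter smaller than the value above; at 1000 UMIs it was -2.0. Both transcripts were found together in 82 and 165 cells. Cldn16 was in 14.9% (10.8 to 19.9) of control cells with a Cldn19 UMI against 18.2% (15.3 to 21.4) without. In haplodeficient cells it was in 28.2% (22.9 to 33.9) against 25.8% (22.7 to 29.2), so detection of Cldn16 differed little by Cldn19.

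Cells with Cldn16 and no Cldn10 (73 and 96) and cells with Cldn10 and no Cldn16 (470 and 549) differed in other genes of the segment, at median depths of 10947 against 12497.5 UMIs in the control library and 8714 against 12617 in the other. Kcnj10, a potassium channel, was at 74.6 against 21.9 CPM in control cells and at 60.3 against 25 in haplodeficient ones. Pth1r, the parathyroid hormone receptor, was at 321 against 164 and 393 against 284, and the transcription factor gene Foxq1 at 76.5 against 31.8 and 163 against 75.4. Slc12a1, the sodium-potassium-chloride cotransporter of this segment, was lower in the Cldn16 cells, at 3756 against 5253 and 3789 against 5164, as was the prostaglandin receptor gene Ptger3, at 136 against 320 and 111 against 194. Casr was at 155 against 138 and 183 against 156, and Cldn19 at 182 against 190 and 178 against 179, with overlapping intervals for both genes in both libraries. Cldn14, a claudin known to act on Cldn16, was at 0 in the Cldn16 cells of both libraries, and 0 UMIs allow up to 3.49 and 2.32 CPM.

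Among vessels, Cldn5 marked arteries and descending vasa recta and was low in capillaries. Descending vasa recta-like cells (89 and 156) had 2360 (2242 to 2483) and 1910 (1826 to 1997) CPM, and arterial-like cells (55 and 73) had 1866 (1746 to 1994) and 1831 (1717 to 1951). Capillary-like cells (101 and 310) had 103 (73.9 to 139) and 53.7 (42.6 to 66.8), and glomerular-like cells (28 and 73) had 41.7 (up to 76.7) and 72.2 (54.4 to 94.0). Arterial-like over capillary-like cells gave a ratio of 18.2 for control cells (13.4 to 25.4) and 34.1 for haplodeficient cells (27.1 to 43.4), and the control ratio was 28.9 when each cell was named on its own. Thinned to 2000 UMIs, Cldn5 was found in 95.7% and 88.2% of arterial-like, 87.5% and 85.2% of descending vasa recta-like, 9.21% and 6.82% of capillary-like and 4.17% and 7.46% of glomerular-like cells, beside 0% and 0.134% of T cell-like cells (132 and 744 cells after thinning, median depths before it 2660 and 2542 UMIs). Unthinned, arterial-like cells had medians of 6304 and 5003 UMIs and capillary-like cells 3079 and 3572, with Cldn5 in 94.5% and 95.9% against 12.9% and 8.71%. A small subcluster with the highest depth (13 and 30 cells, medians 14905 and 24420.5 UMIs) had the pericyte gene Pdgfrb among its leading genes and was left unnamed.

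Cldn10 was a tubule claudin that also appeared in descending vasa recta. Descending vasa recta-like cells had 103 (79.2 to 131) and 136 (115 to 161) CPM, with a Cldn10 UMI in 17.5% (9.91 to 27.6) and 20.4% (14.1 to 28.0) of thinned cells, while arterial-like cells had 0% and 1.47%, capillary-like cells 0% and 0.758%, glomerular-like cells 0% and 0%, and the Calca-led cells described below 2.27% and 3.03%. The control shares of 0% rest on 47, 76 and 24 cells and allow up to 7.55%, 4.74% and 14.2%. Cldn10 was at 161 and 203 CPM in free RNA, above the descending vasa recta level. Free RNA was estimated at 5.55% and 6.46% of UMIs in endothelial-like cells. Cldn7, at 132 and 281 CPM in free RNA, was in 0 of 80 and 0 of 142 thinned descending vasa recta-like cells, which allows up to 4.51% and 2.56%. Before thinning, Cldn7 was in 1.12% and 1.92% of descending vasa recta-like cells and Cldn10 in 39.3% and 38.5%. The part of free RNA in this Cldn10 level was not tested. Cldn15, from the list of other claudins, was at 140 and 154 CPM over the endothelial-like class and between 113 and 184 in the 5 subclusters plotted.

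**Figure D4:**
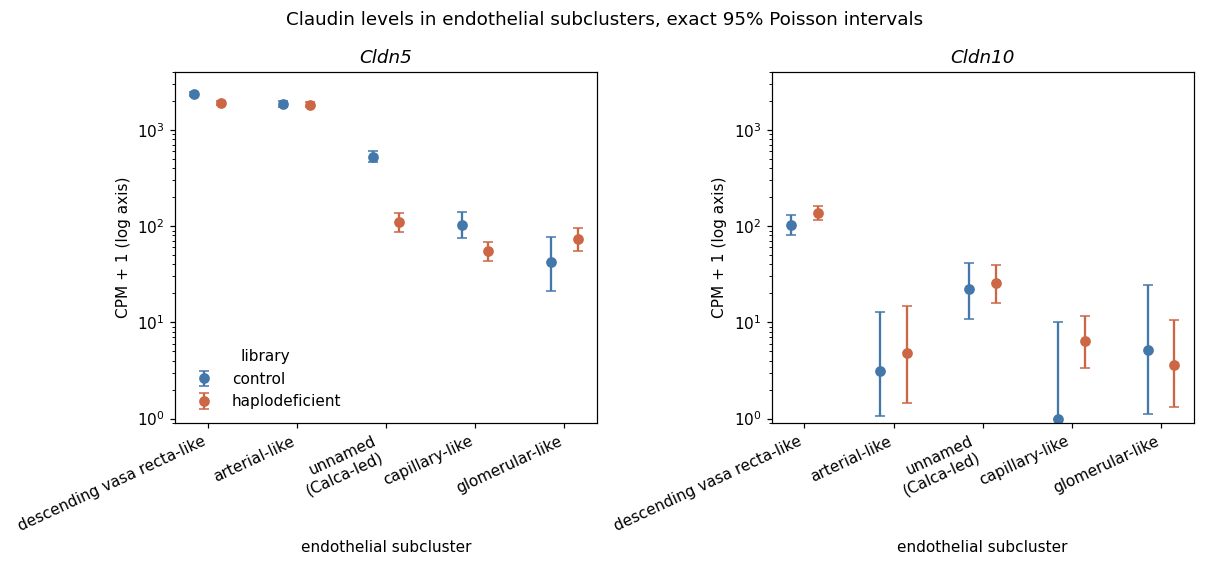
Cldn5 and Cldn10 in 5 endothelial-like subclusters of each library, as CPM + 1 on a log axis with exact 95% Poisson intervals. Cldn5 is at 1831 or more in arterial-like and descending vasa recta-like cells of both libraries and at or below 103 in capillary-like cells, and among the 5 subclusters drawn only descending vasa recta-like cells pass 100 for Cldn10.

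Between libraries, Cldn5 over all endothelial-like cells (362 and 794) was at 1115 CPM for control and 606 for haplodeficient cells, a ratio of 0.544 (0.516 to 0.572). By subcluster the ratio was 0.981 (0.895 to 1.08) in arterial-like, 0.809 (0.756 to 0.866) in descending vasa recta-like and 0.524 (0.356 to 0.780) in capillary-like cells. It was 0.206 (0.158 to 0.265) in an unnamed subcluster led by Calca and Epha6 (76 and 152 cells), at 527 and 108 CPM. Capillary-like cells were 27.9% of control and 39.0% of haplodeficient endothelial-like cells, and arterial-like cells 15.2% and 9.19%. With both libraries given the same subcluster proportions, a setting added after the data were seen, the ratio was 0.806. In endothelial-like cells 0.879% of 3755 genes differed by over 2-fold, and Cldn5, the only member tested there, was not among them.

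In the tubule, Cldn3 and Cldn7 were higher in the haplodeficient library in all 5 classes where they could be compared, but not in every subcluster. Cldn8 was lower in 4 of 5 classes. A gene was compared in a class when it had a mean of at least 50 CPM and 30 UMIs over both libraries, and was called past 2-fold when log2(CPM + 5) differed by at least 1 with separate Poisson intervals. Cldn3 had ratios of haplodeficient over control of 1.48 (1.40 to 1.56) in descending thin limb-like, 1.82 (1.74 to 1.90) in thick ascending limb-like, 1.93 (1.80 to 2.08) in distal convoluted tubule-like, 2.18 (2.06 to 2.31) in connecting tubule or principal cell-like and 1.87 (1.78 to 1.97) in intercalated cell-like cells. Cldn7 had 1.28, 1.55, 1.71, 1.45 and 1.30 in the same order, and 0.978 in intercalated cell-like cells with equal subcluster proportions. Cldn4, the chromosomal neighbour of Cldn3, had 0.907, 0.859, 1.40, 1.17 and 1.13, and Cldn8 had 0.816, 1.06, 0.890, 0.674 and 0.793. The Cldn4 direction turned under some settings, to as much as 1.18 in thick ascending limb-like cells, 1.0 in descending thin limb-like cells and 0.969 in intercalated cell-like cells. In connecting tubule or principal cell-like cells the Cldn3 and Cldn8 intervals lay on opposite sides of 1 (Cldn8 0.620 to 0.732). Within the intercalated cell-like subclusters compared, the Cldn3 ratio ran from 1.09 (interval from 0.997) to 1.72, each below the class ratio. Over 11 alternative settings its lowest value in that class was 1.198. In descending thin limb-like cells the Cldn3 ratio was 0.998 (0.897 to 1.11) in a Mep1a-led subcluster. It was 1.28 to 1.71 in the others compared there. The Cldn7 ratio was 0.907 (0.864 to 0.953) and 0.923 (0.869 to 0.980) in unnamed intercalated cell-like subclusters, and 1.13 to 1.61 in the others compared. Its equal-proportion value there left out a subcluster of 65 and 6 cells. In connecting tubule or principal cell-like subclusters the Cldn7 ratio ran from 1.04 (0.981 to 1.10) to 1.39 (1.05 to 1.84).

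Of the thick ascending limb claudins, Cldn10 had a ratio of 1.80 (1.76 to 1.84) and Cldn16 of 1.72 (1.61 to 1.82), while Cldn19 had 0.976 (0.928 to 1.03). The Cldn10 ratio was 1.65 (1.59 to 1.72) in Atf3-led, 1.70 (1.58 to 1.83) in Psca-led and 1.76 (1.65 to 1.87) in Cxcl5 and C3-led cells, and 1.14 (0.936 to 1.38) in a shallow subcluster. The Cldn16 ratio was 1.26 (1.14 to 1.38), 1.37 (1.11 to 1.69) and 1.69 (1.43 to 1.99) in the first 3 of these, 0.678 (0.335 to 1.28) in the shallow one and 2.55 (2.06 to 3.16) in the Tmem207-led subcluster. With equal subcluster proportions it was 1.38 in the class. Proximal claudins differed less. Cldn10 had 1.27 (1.17 to 1.38) in proximal tubule-like and 1.23 (1.16 to 1.31) in injured tubule-like cells. Cldn2 had 1.03 (0.947 to 1.13) and 0.957 (0.903 to 1.01) in the same classes, and Cldn1 had 0.982 (0.890 to 1.08) in injured tubule-like cells. The injured-like subcluster was 2.82% of control and 36.7% of haplodeficient proximal tubule-like cells. In descending thin limb-like cells Cldn2 had 1.35 (1.21 to 1.5), Cldn10 0.946 (0.853 to 1.05) and Cldn19 0.672 (0.586 to 0.769). That class was mixed. A subcluster led by Mep1a and with Havcr1 among its leading genes, at 179 and 233 CPM of Cldn2, was 27.1% of its control and 18.6% of its haplodeficient cells. In the 5 subclusters compared the Cldn19 ratio ran from 0.779 to 1.16 and each interval included 1, and with equal subcluster proportions it was 0.885. The Cldn10 ratio ran from 0.761 (0.504 to 1.15) to 4.45 (3.15 to 6.39) in the subclusters where it was compared. Over the alternative settings its class ratio ran from 0.848 to 1.35.

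**Figure D5:**
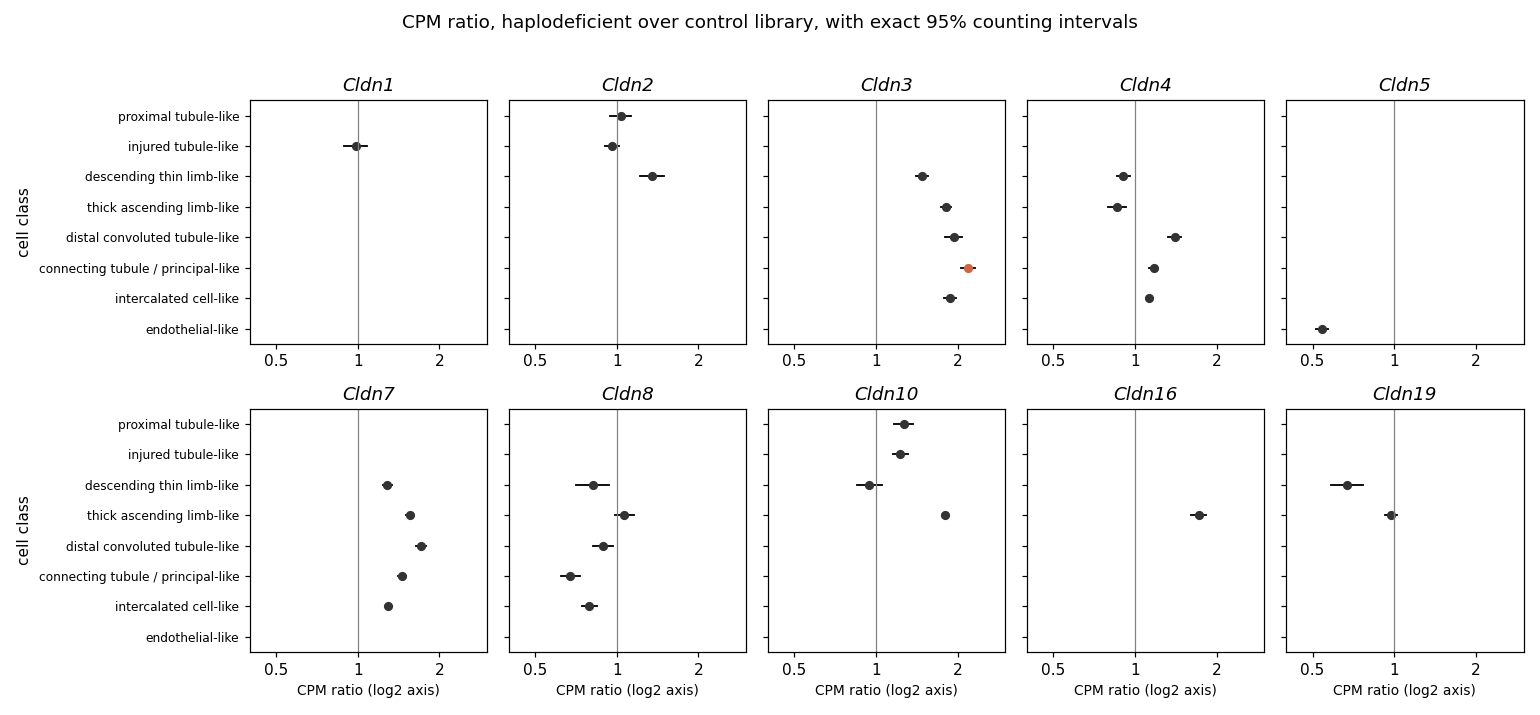
Ratio of CPM, haplodeficient over control library, for each claudin in each class where it could be compared, with exact 95% intervals on a log2 axis. Cldn3 and Cldn7 lie above 1 in all 5 classes shown, Cldn19 in thick ascending limb-like cells lies at 0.976, and Cldn3 in connecting tubule or principal cell-like cells (coloured) is the 1 pair past 2-fold.

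Over all classes 32 pairs of a member and a class could be compared, and 1 was past 2-fold, beside 1.48% of 28600 pairs over all genes. The ratio interval lay above 1 in 18 pairs and below 1 in 8, beside 38.9% and 29.4% of all pairs. In connecting tubule or principal cell-like cells 1 of 4 members was past 2-fold (Cldn3), with 2.56% of 3716 genes called. In the other classes no member was: 0 of 7 in thick ascending limb-like (1.17% of 3577 genes called), 0 of 7 in descending thin limb-like (1.37% of 3793), 0 of 4 in distal convoluted tubule-like (1.63% of 3500), 0 of 4 in intercalated cell-like (1.18% of 3913), 0 of 2 in proximal tubule-like (2.59% of 2900) and 0 of 3 in injured tubule-like cells (0.638% of 3446). The median log2 difference of the members was 0.63 in thick ascending limb-like and 0.63 in distal convoluted tubule-like cells, beside 0.08 and 0.09 over all genes compared, and 0.38 beside 0.02 in connecting tubule or principal cell-like cells. It was -0.08 beside -0.02 in descending thin limb-like cells.

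Several measures moved with these ratios. Mitochondrial UMIs were 12.5% of control and 4.67% of haplodeficient UMIs in thick ascending limb-like cells and 11.6% and 6.15% in connecting tubule or principal cell-like cells. Outside mitochondrial genes the ratio was 1.65 for Cldn10 in thick ascending limb-like and 2.06 for Cldn3 in connecting tubule or principal cell-like cells. Free RNA held 75 and 236 CPM of Cldn3 and was estimated at 7.33% and 5.73% of UMIs in connecting tubule or principal cell-like cells, where the Cldn3 ratio was 2.14 with that estimate subtracted. The summed level of the injury list was 17770 and 26513 CPM in connecting tubule or principal cell-like, 19001 and 24402 in thick ascending limb-like and 22803 and 31018 in distal convoluted tubule-like cells, and its part in the ratios was not tested. The summed dissociation stress list was 8526 and 12375 CPM in thick ascending limb-like, 9022 and 11258 in distal convoluted tubule-like and 9147 and 9859 in connecting tubule or principal cell-like cells, and its part was not tested either. Subcluster mix moved as well. Connecting tubule-like cells numbered 113 and 8, and the principal cell-like cluster led by Aqp2 103 and 7, with 140 and 285 CPM of Cldn3. Within the 5 subclusters that could be compared the Cldn3 ratio ran from 1.32 to 3.59, and with equal subcluster proportions it was 1.48 in the class. That value left out subclusters with very few cells in 1 library, here the connecting tubule-like cells and a principal cell-like subcluster of 92 and 7 cells. It thus covers only part of the class. The same setting gave 1.63 for Cldn10 in thick ascending limb-like cells, of which the Atf3-led subcluster was 16.4% and 38.6%.

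Other genes of the tight junction were taken from lists. Of 17 other claudins 16 were in the files, and only Cldnd1 in descending thin limb-like cells (63.8 and 57.6 CPM, ratio 0.902, 0.794 to 1.03) and Cldn15 in endothelial-like cells (1.10, 0.968 to 1.25) could be compared; neither was past 2-fold. Of 11 other membrane proteins of the junction, 2 to 5 could be compared in each of the 8 classes and none was past 2-fold. Cxadr, an adhesion receptor, led that list in intercalated cell-like cells at 519 and 437 CPM, and Esam, an endothelial adhesion molecule, led it in endothelial-like cells at 506 and 484. Of 14 scaffold genes, which anchor the junction to the cytoskeleton, 13 were in the files, 4 to 11 could be compared per class and none was past 2-fold. Their median log2 difference was below 0 in all 8 classes, from -0.47 to -0.12, beside -0.02 to 0.17 over all genes compared. Cgnl1, a cingulin relative, led the scaffold list in thick ascending limb-like cells at 448 and 296 CPM (ratio 0.661, 0.638 to 0.684), and Magi1 led it in intercalated cell-like cells at 562 and 419 (0.746, 0.716 to 0.777). The members had a median above 0 in thick ascending limb-like, distal convoluted tubule-like, connecting tubule or principal cell-like and intercalated cell-like cells (0.27 beside 0.01 in the last). In proximal tubule-like cells it was 0.19 for 2 members, near the 0.17 over all genes compared. It was below 0 in the other 3 classes.

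Of 14 genes that accompany Cldn16 and Cldn19 in the thick ascending limb, 9 could be compared there and 6 were higher in the haplodeficient library. Their median log2 difference was 0.06, beside 0.08 over all genes compared. Past 2-fold was 1 of the 9, beside 1.17% of all genes compared in that class. That gene was Egf, a growth factor made in this segment, at 1201 and 337 CPM. Egf (293 and 42.3) and Umod (1264 and 419) were lower past 2-fold in distal convoluted tubule-like cells too, as were Umod in descending thin limb-like (561 and 269) and Kcnj1, a potassium channel, in connecting tubule or principal cell-like cells (203 and 97.3). That was 2 of 8 listed genes compared, 1 of 1 and 1 of 4, beside 1.63%, 1.37% and 2.56% of all genes in these classes. In thick ascending limb-like cells Umod, the most abundant protein of urine, was the highest of the list, at 12906 and 8251. In the injury list, Lcn2, a secreted protein of stressed tubules, was at 1838 and 3741 CPM in distal convoluted tubule-like cells, past 2-fold, and at 34.7 and 94.0 in injured tubule-like cells, where Krt18 was at 43.8 and 115. Those 2 of the 12 injury genes compared in injured tubule-like cells were past 2-fold, beside 0.638% of all genes compared there. Krt8, a keratin, was higher past 2-fold in proximal tubule-like cells (186 and 452). The others past 2-fold were lower: Havcr1 in descending thin limb-like cells (152 and 61.9), where 4 of 12 injury genes were higher, and Sema5a in connecting tubule or principal cell-like cells (157 and 66.3). In descending thin limb-like cells the median log2 difference of the injury genes was -0.16, beside -0.02 over all genes compared. Of the dissociation stress list, Jun (1065 and 2248) and Atf3 (88.4 and 275), both early response genes, were past 2-fold in proximal tubule-like cells. They were 2 of 7 compared there, beside 2.59% of all genes, and none was past 2-fold in the other 7 classes.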

How the data were processed

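The authors deposited counts, raw UMIs per gene and barcode, as 1 matrix per library. The matrices held 1342632 (control) and 1430043 (haplodeficient) barcodes, so they were not limited to cells. Cell Ranger 4 is named per the file headers. The genome build was mm10 per the submitters' processing notes, and the annotation release is not given in the sources used here. Barcodes with at least 500 UMIs, 200 genes and at most 50% mitochondrial UMIs were kept (9452 and 10026), and likely doublets were removed with a Scrublet procedure at 0.8% per 1000 cells (715 and 804). Cells of both libraries were clustered together in scanpy 1.11.5 (2000 variable genes without claudins, 30 principal components, 15 neighbours, Leiden resolution 1) and named from marker lists. The naming rule, the rule that leaves deep mixed subclusters unnamed and the name Wt1-led were set after the data were seen, and other rebuilt names could give other values. UMIs were summed per class and scaled to CPM, with exact Poisson intervals (conditional binomial for ratios, Clopper-Pearson for shares) from scipy 1.17.1. All intervals cover counting error only. Free RNA in a class was estimated from markers of other classes.

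All 10 members are named, with the 3 most similar genes each, and from other lists the genes past 2-fold or highest in a class. Companion genes in the Cldn16 and Cldn10 split, and subclusters described, were chosen after their values were seen. The members and lists were chosen with earlier results of these data known. The rule for past 2-fold and the ratio interval were tested on simulated Poisson counts without spread between cells or libraries. Clustering, naming and thinning were not tested in this way. Cell hashing tags were not analysed here.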

Additional observations from a re-analysis of the deposited data

How the results depend on the processing

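No paired analysis was possible because each group had 1 library. Of 455 alternative values of 45 ratios, 426 stayed on the same side of 1, and of 376 for the 37 ratios whose interval excluded 1, 366 did; the 10 others were Cldn4 in 3 classes, Cldn7 in intercalated cell-like cells and Cldn2 in injured control cells. The number of members past 2-fold in a class was 1, but 2 at Leiden resolution 2, 2 with each cell named alone, 2 at a minimum of 1000 UMIs, 4 with doublets kept, 3 at a mean of at least 10 CPM and 0 with equal subcluster proportions. The last setting left out subclusters with very few cells in 1 library.

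The Cldn10 ratio in thick ascending limb-like cells (1.80) was 1.70 at Leiden resolution 2, 1.86 with each library clustered on its own, 1.73 with each cell named alone, 1.74 at a mitochondrial limit of 25%, 2.05 with doublets kept, 1.72 as a mean of per-cell CPM, 1.65 outside mitochondrial genes, 1.63 with equal proportions and 1.70 with median-of-ratios scaling. The Cldn3 ratio in connecting tubule or principal cell-like cells (2.18) was 2.40 with each cell named alone, 2.34 at 1000 UMIs, 2.35 with doublets, 1.87 per cell, 2.06 outside mitochondrial genes and 1.48 with equal proportions. The endothelial Cldn5 ratio (0.544) was 0.494 with doublets, 0.597 per cell and 0.806 with equal proportions, and arterial over capillary-like control cells (18.2) gave 28.9 with each cell named alone and 13.1 at 1000 UMIs.

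Cldn1 in injured over proximal control cells (6.67) was 5.76 at resolution 2, 7.71 clustered separately, 4.84 with each cell named alone, 4.61 at 25% and 5.74 outside mitochondrial genes. In haplodeficient cells (4.36) it was 2.77, 1.88 and 2.62 at resolution 2, with each cell named alone and at 25%. The haplodeficient difference in Cldn10 share by Cldn16 (-12.6 points) was -2.0 at 1000 UMIs, -3.45 with doublets, -5.48 with each cell named alone and -5.34 at 25%. The cause was not tested for any of these. The settings outside mitochondrial genes and with equal proportions were chosen after seeing the data. Separate clustering gave no haplodeficient injured over proximal ratio, and classes without subclusters no value with equal proportions.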

Other observations

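In 2 immune classes 1 control cell held most of a claudin's UMIs. In control monocyte-like cells all 21 Cldn5 UMIs were in 1 of 53 cells, and 44 of the 71 Cldn10 UMIs in control macrophage-like cells were in 1 of 808 cells. Elsewhere it was more spread: haplodeficient macrophage-like cells had 34 Cldn10 UMIs in 25 cells, and dendritic cell-like cells had 17 and 37 Cldn1 UMIs in 11 and 20 cells. In Wt1-led cells Cldn5 had 8 UMIs in 4 control cells and 85 UMIs in 29 haplodeficient cells.

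Cldn6, which was too low for the comparison between libraries and was picked out after its values were seen, had 20.8 CPM (18.1 to 23.8) in control and 46.2 (42.1 to 50.7) in haplodeficient intercalated cell-like cells. Its level in connecting tubule or principal cell-like cells was 18.5 (15.3 to 22.1) and 44.4 (39.6 to 49.5).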
